A study of Rattus norvegicus with 12 samples.

Results

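Keratins and intestinal differentiation markers were followed in CC531, a rat colon carcinoma line, while it was treated with butyrate or aspirin. They comprised 10 genes: Krt8, Krt18 and Krt19, the adhesion genes Ceacam1 and Ceacam4, the secreted peptides Tff3 and Guca2b, the fatty acid binding proteins Fabp1 and Fabp2, and the intestinal phosphatase Alpi. A probe set, the group of probes that reads 1 transcript on the array, was included when the array annotation gave it one of these symbols and no other. This rule found 12 of 8740 probe sets, 2 each for Krt18 and Krt19 and 1 for each other gene. Of these, 10 were bright enough to be tested, among 6118 in all, and those of Fabp1 and Guca2b were not.

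Total RNA of the line was measured on 12 arrays, 1 for each condition. The cells were untreated (2 and 24 h), or were kept in 4.5 mM butyrate, or in 3 mM aspirin, with arrays at 2, 6, 12, 16 and 24 h each. That gave 2 untreated, 5 butyrate and 5 aspirin arrays, all of a single cell line. Butyrate is a short-chain fatty acid made by gut bacteria and inhibits histone deacetylases, and aspirin inhibits the cyclooxygenases that make prostaglandins. Whether the arrays stand for separate cultures is not stated. A p-value here therefore reflects the spread among these arrays alone, and that may be technical. In the comparisons with untreated cells the hours of a treatment stood in for replicates, so that spread also holds changes over time. Between the drugs, compared at the same hours, it also holds how their difference varied from hour to hour.

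Keratins are the intermediate filament proteins of epithelial cells, and each filament pairs a type II with a type I keratin. In simple epithelia such as the gut lining, keratin 8 (type II) pairs with keratins 18 and 19 (type I). As cells leave the crypts of the intestine they specialise as absorptive enterocytes, which carry alkaline phosphatase on the brush border and fatty acid binding proteins inside, or as goblet cells, which secrete mucus and trefoil factor 3. Butyrate is widely used to induce such differentiation markers in colon cancer cells, above all alkaline phosphatase.

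Markers of epithelium were checked first. The keratin probe sets and that of Epcam, an epithelial adhesion molecule (8234 to 16911 units), were far above the background on 12 of 12 arrays. Intensity is given in the units of the table, in which values under 91 were raised to that floor before log2. Krt20, a keratin of the mature gut surface, read 5.2 to 251 units, around the floor, and Cdx1, an intestinal transcription factor, was below 0 on every array. Vim, the intermediate filament of mesenchymal cells, read 2286 to 4349 units. Of 20 fibroblast and mesenchymal markers on the array 8 were above the floor on all arrays and 7 on none, Tagln and Pdgfrb among the latter. Their summed intensity was 31350 to 35870 untreated, 31450 to 34960 with butyrate and 35210 to 40950 with aspirin. Blood and immune markers (2 of 12 above the floor on all arrays, Cd3d and Cd8a on none) summed to 3383 to 5056 untreated, 1944 to 2694 with butyrate and 3117 to 6950 with aspirin. Endothelial markers (2 of 8 on all arrays, Vwf and Sele on none) summed to 1464 to 1750, 1096 to 1472 and 1114 to 1472. Hepatocyte markers (2 of 16 on all arrays, Ttr, Tat, Apoh, Tdo2 and Pck1 on none) summed to 2555 to 2662, 2730 to 4008 and 2255 to 2961. The part of these markers in the results below was not tested. The untreated 2 h array correlated with the treated arrays at 0.866 to 0.942 and the untreated 24 h array at 0.884 to 0.970, over log2 values of the tested probe sets.

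Butyrate against untreated cells asked which markers the fatty acid changed. Krt18 fell and Krt19 rose, each on both of its probe sets, while Krt8, their filament partner, was 0.01 ± 0.10 lower on the log2 scale (mean ± SE) and did not pass the test. Of the 10 tested probe sets 4 passed at an adjusted p of 0.05 (limma, 12 arrays, Benjamini-Hochberg over 6118 probe sets), 2 higher and 2 lower, all keratins. Over all tested probe sets 11.7% passed, 7.78% higher and 3.92% lower. The same 4 had every butyrate array on 1 side of both untreated arrays, which held for 27.8% of all (14.7% higher, 13.2% lower). With each array centred on its median the split over all probe sets was 370 higher and 437 lower, in place of 476 and 240. That centring moved the median change of all tested probe sets from 0.00 to −0.19 and left the 4 keratin changes in their directions. Aspirin against untreated cells changed 0 of the 10 (limma, 3 at an unadjusted p under 0.05), beside 0.147% of all. Butyrate against aspirin at the same hours differed at 7 of the 10, 5 higher and 2 lower, beside 25.2% of all (15.6% higher, 9.61% lower). Over all probe sets these were 952 higher and 588 lower, and 568 and 1517 with median centring, which moved the median difference from 0.10 to −0.21. In bulk RNA, fewer cells that make a transcript and less of it per cell cannot be told apart.

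**Figure D1:**
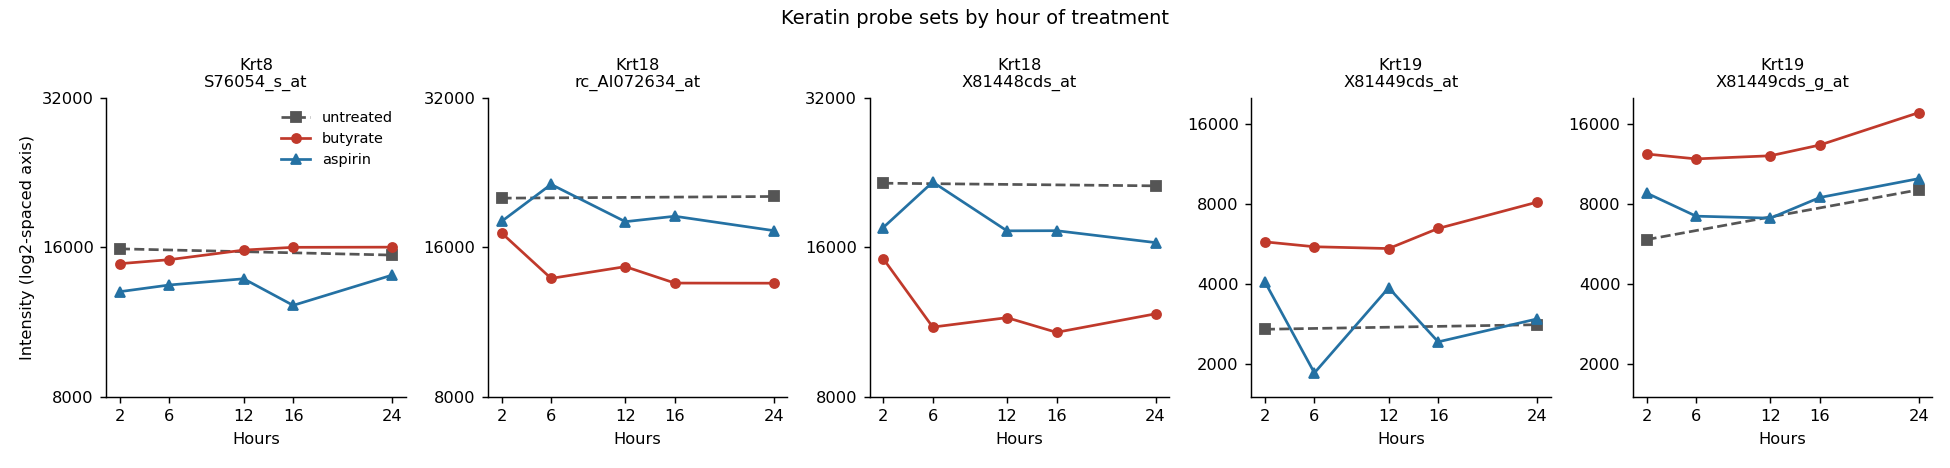
Intensity of the 5 keratin probe sets (log2-spaced vertical axis) against hours, with 1 point per array for untreated (squares), butyrate (circles) and aspirin (triangles); there are no error bars because each point is 1 array. All butyrate arrays lie below both untreated arrays for Krt18 and above them for Krt19, while those of Krt8 lie between 14834 and 16016.

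Krt18, the type I partner of keratin 8, read 20103 and 20259 units on untreated arrays at 2 and 24 h with the probe set rc_AI072634_at. With butyrate it read 17105, 13855, 14632, 13558 and 13551 units at 2, 6, 12, 16 and 24 h. With aspirin it read 18048, 21429, 18025, 18485 and 17290. Every butyrate array was thus below both untreated arrays, and below the aspirin array of its hour. The change with butyrate was −0.48 ± 0.12 (SE, adjusted p = 0.0258). It lost its call without the untreated 2 h array (0.0868), without the untreated 24 h array (0.0867), without butyrate 16 h (0.06) and with time as a factor, a block by hour (0.0746). It also did so with quantile normalization (−0.34, 0.0834), without the variance trend (0.084) and with the 2 groups alone (0.0566).

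The second Krt18 probe set, X81448cds_at, moved further the same way. It read 21546 and 21284 units untreated. With butyrate the values were 15180, 11053, 11548, 10787 and 11755. With aspirin they were 17541, 21661, 17275, 17286 and 16357. The drop was present on the first butyrate array, at 70.9% of the untreated mean, and from 6 h onward the level stayed between 50.4 and 54.9%. The change was −0.84 ± 0.15 (adjusted p = 0.00406), or 1.79-fold lower, and it was called under each of the 8 other settings and in all 12 fits that drop an array (up to 0.0369). The mean log2 level was 14.39 ± 0.01 (SD, n = 2) untreated, 13.55 ± 0.20 (n = 5) with butyrate and 14.13 ± 0.16 (n = 5) with aspirin. Over the 12 arrays both Krt18 probe sets correlated at r = 0.987, as a description of arrays that share their scaling.

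Krt19, the smallest type I keratin and a marker of gut and duct epithelium, went the other way. On X81449cds_at it read 2693 and 2802 units untreated. Butyrate gave 5745, 5506, 5422, 6453 and 8106 units over the hours. Aspirin gave 4060, 1845, 3860, 2415 and 2947, on both sides of the untreated values. The rise with butyrate was 1.17 ± 0.27 (adjusted p = 0.0172), a 2.25-fold change that was present at 2 h (209% of the untreated mean) and reached 295% at 24 h. It was not called without the untreated 2 h array (0.107) or the untreated 24 h array (0.0874), nor without the filter on dim probe sets (0.0515).

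The other Krt19 probe set, X81449cds_g_at, read 5858 and 9021 units untreated, so the untreated pair itself differed by 0.62 on the log2 scale. With butyrate it read 12302, 11792, 12115, 13298 and 17613 units. With aspirin it read 8772, 7178, 7056, 8438 and 9940. All butyrate arrays were above both untreated and all aspirin arrays. The rise was 0.87 ± 0.20 (adjusted p = 0.0166) and was lost without the untreated 2 h array (0.56, 0.188), with median centring (0.68, 0.0662) and with the 2 groups alone in the fit (0.0739). Set beside untreated cells hour by hour it was 2.10-fold higher at 2 h and 1.95-fold at 24 h, with no replicate behind either ratio.

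Krt8, the type II keratin, read 15890 and 15438 units untreated on S76054_s_at. Butyrate arrays read 14834, 15113, 15798, 16003 and 16016, on both sides of the untreated pair. Aspirin arrays read 13028, 13438, 13830, 12225 and 14070, all below the untreated pair. The change with butyrate was −0.01 (95% interval −0.23 to 0.21, adjusted p = 0.974), and it read 0.14 with quantile normalization (0.366). With aspirin it was −0.24 ± 0.10 (adjusted p = 0.427). The ending _s_at marks a probe set that may match more than 1 transcript.

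Krt8 and Krt18 lie next to each other on rat chromosome 7, with 0 protein-coding genes between them in RefSeq (GRCr8), yet only Krt18 passed the test with butyrate, and the difference between their changes was not tested. Their promoter windows, 250 bases before to 50 after the start, are shown because the genes are neighbours whose products pair. Capitals mark matches, on either strand, to the GC box GGGCGG, the E-box CACGTG, the AP-1 motif TGANTCA and the TATA box TATAAA. The Krt8 window is chr7:135010290-135010589 on the minus strand and the Krt18 window chr7:135035918-135036217 on the plus strand.
Krt8: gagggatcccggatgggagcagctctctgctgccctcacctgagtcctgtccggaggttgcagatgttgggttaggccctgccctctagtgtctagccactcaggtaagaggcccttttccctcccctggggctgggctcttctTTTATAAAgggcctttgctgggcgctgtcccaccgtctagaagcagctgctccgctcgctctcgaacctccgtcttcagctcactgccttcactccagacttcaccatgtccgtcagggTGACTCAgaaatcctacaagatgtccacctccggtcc
Krt18: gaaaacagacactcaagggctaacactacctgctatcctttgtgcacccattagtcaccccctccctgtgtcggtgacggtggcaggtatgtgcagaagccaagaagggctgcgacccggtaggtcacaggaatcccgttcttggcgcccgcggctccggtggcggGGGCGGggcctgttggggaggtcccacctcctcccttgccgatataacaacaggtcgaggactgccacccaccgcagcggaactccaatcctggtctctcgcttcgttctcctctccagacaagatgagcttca
The Krt8 window held the TATA box on both strands, overlapping in 1 run, and an AP-1 match after the start. The Krt18 window held 1 GC box and none of the other 3 motifs. Of 33469 RefSeq windows of this length, 33.1% held the GC box, 14.2% the TATA box, 7.33% the AP-1 motif and 6.42% the E-box. A match is a description of the letters, not a site.

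Between the drugs, Krt19 was higher with butyrate than with aspirin at every hour, by 0.69 ± 0.07 (adjusted p = 0.00561, limma with time as a block) on X81449cds_g_at and by 1.09 ± 0.21 (0.0184) on X81449cds_at. Krt18 was lower at every hour, by 0.58 ± 0.11 on X81448cds_at (0.0188) and by 0.36 ± 0.09 on rc_AI072634_at (0.0322). Krt8 was higher with butyrate at every hour, by 0.22 ± 0.06 (0.0408), but it read −0.082 (0.585) with median centring, so its direction depends on the scaling. The groups kept their order at all 5 hours on 6 of the 10 probe sets, these 5 and Tff3, beside 32.9% of all tested (19.9% higher, 13% lower; of the 6, 4 were higher and 2 lower). When an array is left out its hour leaves the comparison, and 1 to 6 of the 7 calls were then made. The first Krt19 value was called in all 10 such fits (up to 0.0419), the second in 4 of 10 (those without a 2 or 12 h array), each Krt18 probe set in 2 of 10 (those without a 2 h array, with up to 0.112 in the rest) and Krt8 in 0 of 10.

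Slopes over log2 hours asked whether a marker went on changing while a drug acted. With butyrate the keratin slopes were −0.088 ± 0.041 and −0.11 ± 0.053 log2 units per doubling of hours for Krt18, 0.11 ± 0.13 and 0.11 ± 0.07 for Krt19 and 0.035 ± 0.031 for Krt8 (adjusted p from 0.239 to 0.695). With aspirin they lay between −0.087 and 0.03 (0.731 to 0.923), where 1.65% of all tested slopes were called. No keratin slope passed the test. Krt18 and Krt19 thus differed from untreated on the first butyrate array, a single array, and no further trend passed the test. At 2 h Krt18 was at 84.8 and 70.9% of the untreated mean with butyrate, and at 89.4 and 81.9% with aspirin. Krt19 was at 209 and 169% with butyrate and at 148 and 121% with aspirin. With butyrate Krt18 was lower again at 6 h (68.7 and 51.6%).

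**Figure D2:**
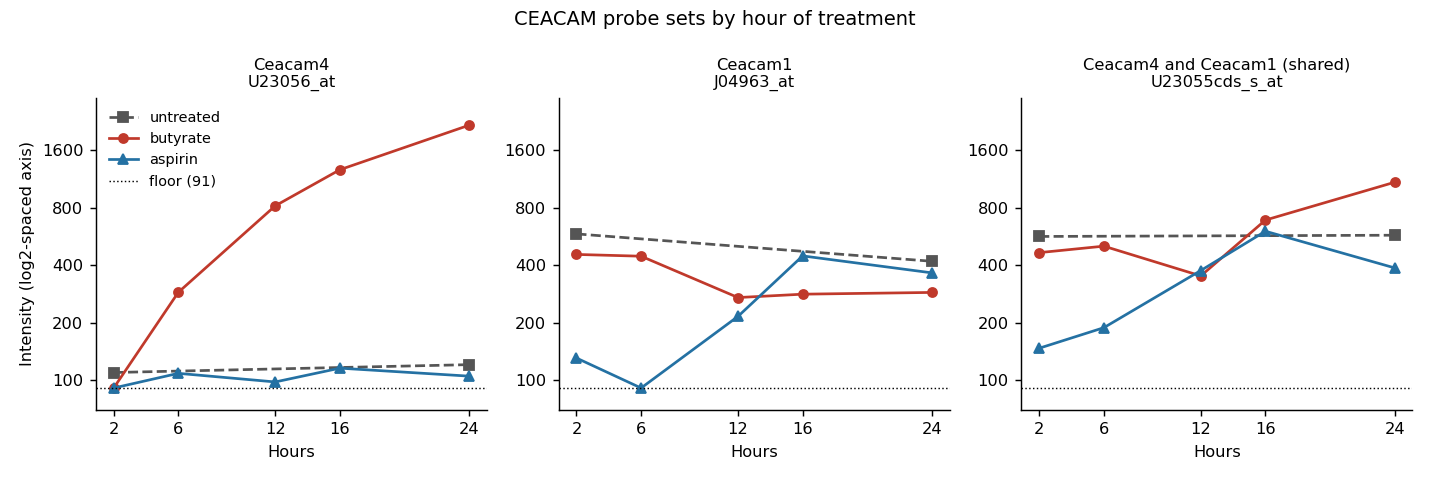
Intensity of the Ceacam4, Ceacam1 and shared probe sets (log2-spaced vertical axis, values under the floor of 91 drawn on the dotted line) against hours, with 1 point per array and no error bars. Only the butyrate line of Ceacam4 climbs at each step, from the floor at 2 h to 2160 units at 24 h, while its untreated and aspirin arrays stay under 121.

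Ceacam4 showed the steepest course of the 10 genes with butyrate. CEACAMs are immunoglobulin-like adhesion proteins of the cell surface, and Ceacam1 is the family member of epithelia that joins neighbouring cells and dampens signalling. On U23056_at Ceacam4 read 110 and 121 units untreated. With butyrate it read 54.1 (under the floor), 288, 818, 1263 and 2160 units at 2, 6, 12, 16 and 24 h. With aspirin it read 49.8 (under the floor), 109, 97.9, 116 and 105. The butyrate arrays rose at each hour from 6 h on, and from 6 h each was above every untreated and aspirin array. No fold is given, since the untreated and aspirin values lie next to the floor.

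The slope of Ceacam4 with butyrate was 1.29 ± 0.08 log2 units per doubling of hours (adjusted p = 0.00099, limma), where 8.99% of all tested probe sets had a called slope (4.79% rising). Over all probe sets 293 slopes rose and 257 fell with butyrate, and 211 and 341 with median centring. The Ceacam4 slope is judged against a spread over both drugs, and its aspirin arrays lie at or next to the floor. It had the smallest p of the 6118 slopes. Since the 2 h array was at the floor, its size depends on the floor: it was 1.02 with the floor at 182 and 1.49 with the floor at 45.5. It was called in all 7 other settings and in all 10 fits that drop an array (up to 0.0198). With aspirin the slope was 0.06 ± 0.08 (0.74). The difference of the slopes was 1.23 ± 0.11 (0.0108), called in all 10 fits that drop an array (up to 0.0416), but 0.0942 with time as a factor (a block by hour), beside 1.73% of all tested.

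As a mean over all hours the change of Ceacam4 with butyrate was 2.30 ± 0.85 (adjusted p = 0.0948) and did not pass, since the 2 h array stayed at the floor. Without that array it was 2.96 (0.00445). The mean difference from aspirin was 2.46 ± 0.65 (0.0399), but it was not called with the higher floor (1.84, 0.106), with quantile normalization (2.27, 0.0628) or without the filter (0.112), and was called in 2 of 10 fits that leave out an array, those without a 2 h array. The 5th percentile of the table lies 182 units below 0, so values of about 121 are within the size of its background and give no level of Ceacam4 in untreated or aspirin cells.

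Ceacam1 did not follow. On J04963_at it read 583 and 419 units untreated. With butyrate it read 455, 446, 271, 282 and 288. With aspirin it read 131, 78.6 (under the floor), 216, 447 and 365, low at 2 and 6 h and near the untreated level at 16 and 24 h. The changes were −0.55 ± 0.54 with butyrate (adjusted p = 0.563) and −1.23 ± 0.54 with aspirin (0.427), and neither passed. The slopes were −0.23 ± 0.17 with butyrate (0.472) and 0.54 ± 0.17 with aspirin (0.138), and their difference of −0.77 ± 0.24 did not pass either (0.146).

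A further probe set, U23055cds_s_at, names both Ceacam4 and Ceacam1 and is therefore none of the 12. It read 565 and 574 units untreated. Butyrate arrays read 465, 503, 351, 689 and 1086. Aspirin arrays read 147, 188, 375, 602 and 387. It thus had the late high values of Ceacam4 with butyrate and the early low values of Ceacam1 with aspirin. No comparison of it passed (adjusted p from 0.0893 to 1).

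The windows at the starts of Ceacam1 (chr1:90187743-90188042, minus strand) and Ceacam4 (chr1:89504305-89504604, plus strand) are shown because they are almost the same sequence, while the 2 genes took different courses with butyrate. Capitals again mark motif matches.
Ceacam1: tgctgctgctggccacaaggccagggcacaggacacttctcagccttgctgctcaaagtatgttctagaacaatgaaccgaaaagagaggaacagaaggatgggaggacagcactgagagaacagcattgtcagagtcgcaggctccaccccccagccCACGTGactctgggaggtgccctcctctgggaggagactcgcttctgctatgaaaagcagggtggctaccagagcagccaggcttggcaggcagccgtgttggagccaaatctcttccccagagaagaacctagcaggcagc
Ceacam4: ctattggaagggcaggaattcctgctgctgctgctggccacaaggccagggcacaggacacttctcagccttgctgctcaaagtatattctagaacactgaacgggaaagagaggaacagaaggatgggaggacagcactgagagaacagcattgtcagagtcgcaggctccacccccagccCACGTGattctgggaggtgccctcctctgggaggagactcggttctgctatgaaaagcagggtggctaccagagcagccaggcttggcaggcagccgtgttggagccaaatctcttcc
In a local alignment 269 of 276 positions were identical (97.5%), with 6 mismatches and 1 gap. Both windows held a single E-box and none of the other 3 motifs. It lies 92 to 87 bases before the start of Ceacam1 and 68 to 63 before that of Ceacam4. With such closely related genes, signal from one transcript on the probes of the other was not tested.

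**Figure D3:**
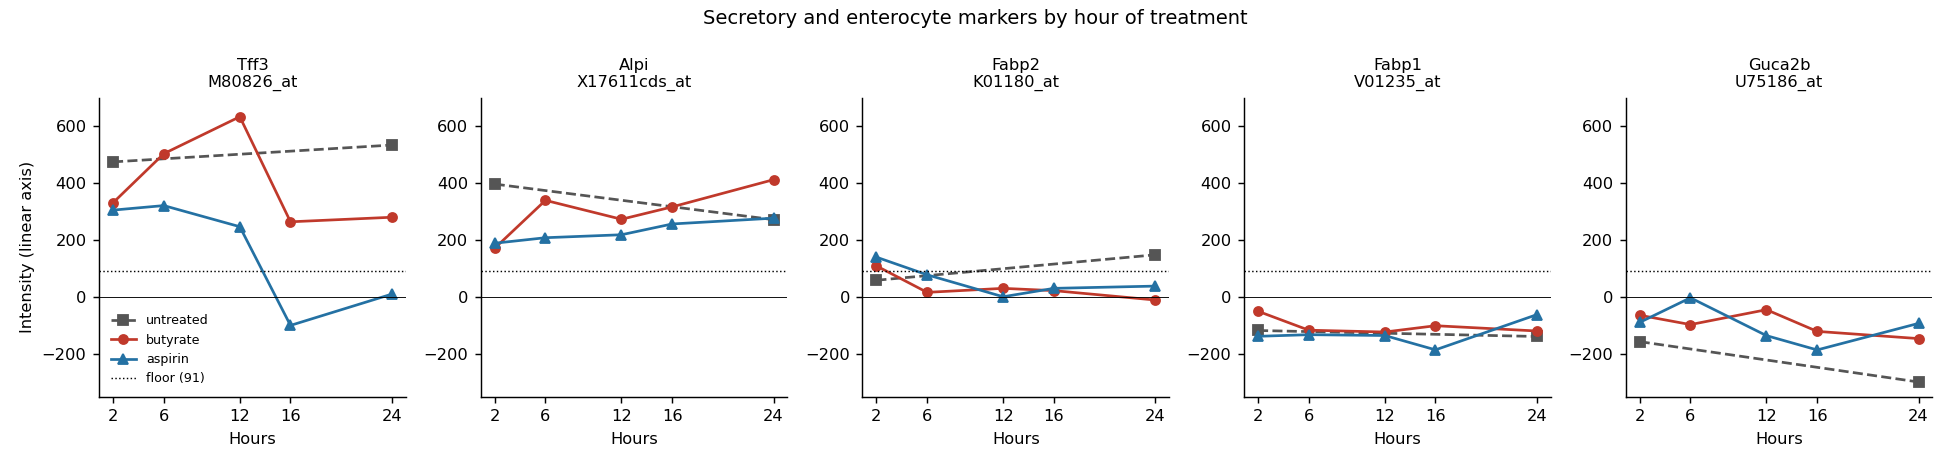
Intensity of Tff3, Alpi, Fabp2, Fabp1 and Guca2b (linear axis, 0 as a thin line and the floor of 91 dotted) against hours, with 1 point per array and no error bars. The 16 and 24 h aspirin arrays of Tff3 fall to −99.2 and 10.7 units, and Fabp1 and Guca2b lie under 0 on all 12 arrays.

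Tff3, the trefoil peptide that goblet cells secrete to protect and repair the mucosa, read 475 and 535 units untreated on M80826_at. With butyrate it read 332, 504, 634, 265 and 281. With aspirin it read 306, 322, 248, −99.2 and 10.7, the last 2 under the floor. All aspirin arrays were below both untreated arrays, which held for 2 of the 10 probe sets with aspirin (the other being Krt8). Of all tested probe sets 7.78% had all aspirin arrays below, and 11.6% had them on either side. The change with aspirin was −1.47 ± 0.55 (adjusted p = 0.401) and its slope −0.53 ± 0.20 (0.2), and neither passed. Both depend on the floor, where the 2 late arrays lie. With butyrate the change was −0.41 ± 0.55 (0.677). Butyrate against aspirin differed by 1.06 ± 0.28 (0.0405). That call held in 2 of 10 fits that leave out an array, those without a 2 h array (up to 0.131 in the rest), and was lost with the higher floor (0.0744), without the filter (0.105), with either scaling (up to 0.125) and without time as a block (0.109).

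Alpi, the alkaline phosphatase of the enterocyte brush border, read 397 and 272 units untreated on X17611cds_at. With butyrate it read 172, 340, 274, 317 and 413. With aspirin it read 190, 209, 219, 257 and 278, overlapping the untreated range only at 24 h. The change was −0.17 ± 0.35 with butyrate (95% interval −0.93 to 0.58, adjusted p = 0.795) and −0.53 ± 0.35 with aspirin (0.631). Its slope with butyrate was 0.29 ± 0.09 (0.0974). That value passed only without butyrate 6 h (0.33, 0.0475) and fell to 0.12 (0.897) without butyrate 2 h. With aspirin the slope was 0.15 ± 0.09 (0.413). Neither the change nor the slope of Alpi passed with all arrays in the fit.

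Fabp2, which carries fatty acids inside enterocytes, was above the floor on 3 of the 12 arrays: untreated 24 h (149 units), butyrate 2 h (110) and aspirin 2 h (141). Its other values ran from −10.0 to 78.6. The changes were −0.30 ± 0.22 with butyrate (adjusted p = 0.411) and −0.23 ± 0.22 with aspirin (0.777), and they turn on which arrays cross the floor. The slope with aspirin, −0.17 ± 0.05 (0.101), passed only without aspirin 6 h (0.0392). Fabp1, the liver and gut fatty acid binding protein, ran from −185 to −49.5 units over the 12 arrays. Guca2b, which encodes uroguanylin, a peptide that stimulates intestinal fluid secretion, ran from −298 to −2.2. Neither was measured above background on any array, and no change is given for them.

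**Figure D4:**
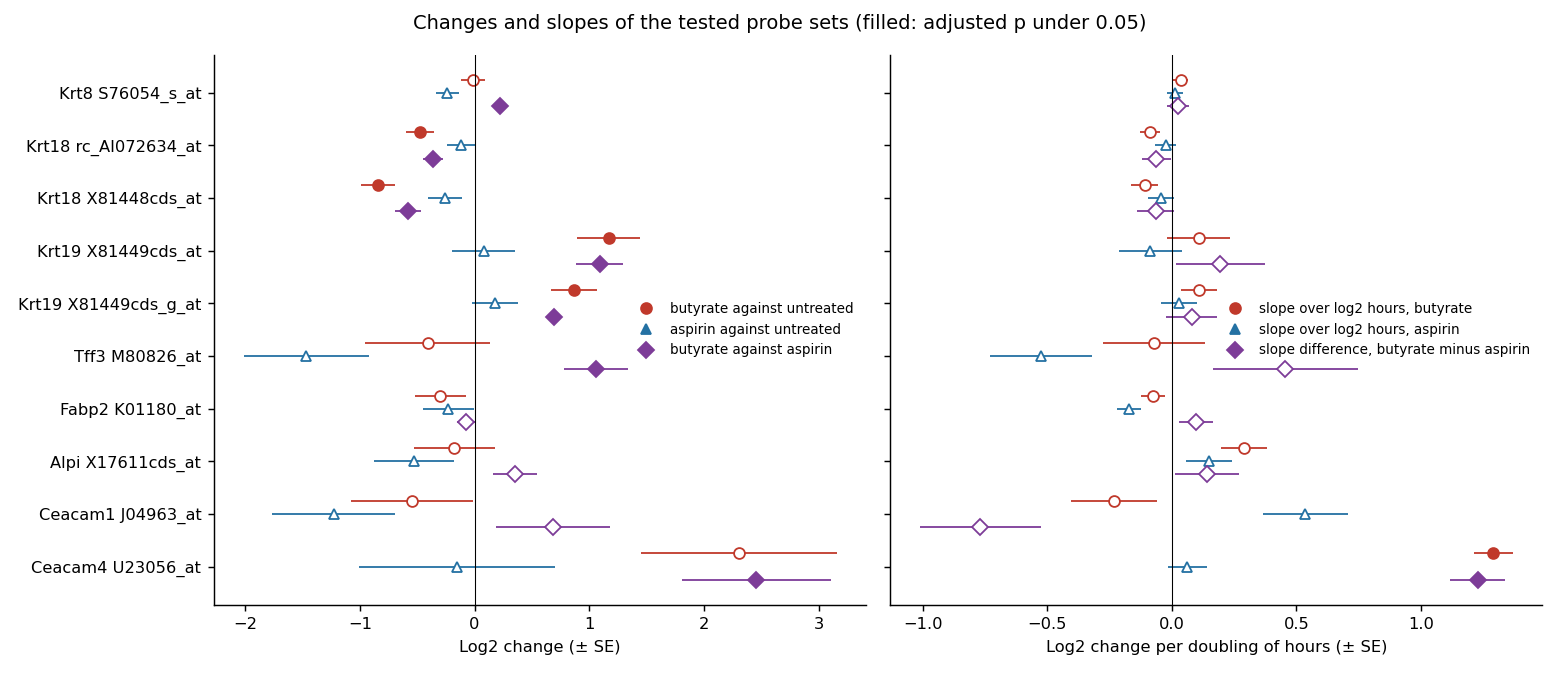
Log2 change (left) and log2 change per doubling of hours (right) of the 10 tested probe sets, with bars of 1 SE from limma, for butyrate (circles), aspirin (triangles) and their difference (diamonds); filled symbols have an adjusted p under 0.05. On the left the filled butyrate symbols are those of Krt18 and Krt19, and on the right the filled symbols are those of Ceacam4 (1.29 with butyrate and 1.23 for the difference).

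Other genes of gut epithelium were read from lists written from general knowledge. A gene with several probe sets was read from the brightest of them, and over all 3648 genes read this way 7.7% were higher and 3.62% lower with butyrate than untreated, with a median change of 0.01. Of 14 tested genes of other keratins and epithelial junctions 0 were higher and 1 was lower (median −0.19). That gene was Krt14, a keratin of stratified epithelium (−1.32 ± 0.32, adjusted p = 0.02). It lost the call without either untreated array (up to 0.111), narrowly without butyrate 12 or 16 h (0.052 and 0.0507), without the filter (0.0515) and with time as a factor (0.0946). The change of Krt20 read 0.05 (0.961), but −0.044 and −0.14 with quantile normalization and median centring. Epcam read −0.51 ± 0.16 (0.0553).

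Of 29 tested enterocyte and brush border genes, each on its brightest probe set, 1 was higher and 0 were lower with butyrate (median −0.24). For Acsl5 of this list the brighter probe set did not pass (−1.12, limma, adjusted p = 0.105), but the dimmer was called lower (−1.26, 0.0447). The higher gene was Slc40a1, ferroportin, the iron exporter of the enterocyte. It read 140 and 79 units untreated, 254, 522, 365, 427 and 270 with butyrate, and between 108 and 138 with aspirin. Its change was 1.65 ± 0.31 (limma, adjusted p = 0.00668) and lost its call with the 2 groups alone (0.0524). Without the untreated 24 h array the change was 1.34 and also lost its call. Since these untreated arrays lie at or next to the floor, the size depends on it, and with the higher floor it was 0.96 (0.0369). The second probe set of Slc40a1 read 0.90 (0.0431), but all its untreated and aspirin arrays were under the floor. It passed the filter only through the butyrate arrays, so its call is no separate support. Of goblet, Paneth and enteroendocrine genes 0 of 17 were called (limma, median −0.01), of intestinal transcription factors 0 of 13 (−0.15), of fatty acid binding relatives 0 of 6 (0.59) and of CEACAM relatives 0 of 1 (−0.18). With aspirin against untreated, 0 genes of these 6 lists were called, where 0.11% of the 3648 genes were higher and 0.0274% lower.

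Between the drugs 15.7% of the 3648 genes were higher and 8.96% lower with butyrate (median 0.10). Among keratins and junctions 3 of 14 were higher and 1 lower (median −0.01): Jup, plakoglobin of desmosomes (1.52 ± 0.25, adjusted p = 0.0121), Gjb1, a gap junction connexin (1.33 ± 0.31, 0.0298), Itgb4, the hemidesmosome integrin (0.89 ± 0.14, 0.011), and Epcam (−0.57 ± 0.09, 0.0121). Among enterocyte genes 5 of 29 were higher and 2 lower (median 0.00). The higher included Car2, carbonic anhydrase 2 (2.04 ± 0.49, 0.0318), Slc40a1 (1.52 ± 0.18, 0.00693) and the apolipoprotein gene Apoc3 (1.34 ± 0.28, 0.022). Of the 2 lower, 1 was Acsl5 on its brighter probe set (−1.05, limma, adjusted p = 0.0285), while its dimmer probe set did not pass (−0.93, 0.065). Apoc3 read 1207 and 1242 units untreated, 694 to 1252 with butyrate and 194 to 673 with aspirin. Against untreated its change was −0.30 with butyrate (limma, adjusted p = 0.718) and −1.64 with aspirin (0.256), and neither passed. Of the aspirin arrays of Car2, 4 of 5 lie at or next to the floor. With the higher floor its difference was 1.32 (0.0738) and that of Slc40a1 0.96 (0.0314), and Car2 also lost its call with quantile normalization (0.0658) and without the filter (0.0902). Gip, an enteroendocrine hormone gene, was higher (1.45 ± 0.28, 0.019, and 0.72 with the higher floor) as the only 1 of 17 in its list. The other probe sets of Car2, Apoc3 and Gip stayed under the floor on every array (at most 51.4 units) and were not tested. Hes1, a Notch target, was lower (−0.55 ± 0.14, 0.0324) as the only 1 of 13. Scp2, a sterol carrier, was higher (1.25 ± 0.28, 0.0264), but its other probe set did not pass (0.43, 0.251). Fabp5 was higher too (0.27 ± 0.07, 0.0362), though it read −0.040 (0.808) with median centring. Slc40a1 was called in all 10 fits that drop an array (up to 0.0459). Each of the others was lost in at least 4 of 10 such fits, apart from Acsl5, whose difference was not followed through them.

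Over all 3648 genes 5.18% had a rising and 4.33% a falling butyrate slope, 1.1% and 0.356% an aspirin slope, and 0.658% and 0.905% a positive or negative slope difference. In these lists 1 of 29 enterocyte genes and 1 of 13 transcription factors had a called butyrate slope, 1 of 13 transcription factors an aspirin slope and 2 of 13 a slope difference. Acsl5, an acyl-CoA synthetase of the gut, fell with butyrate by 0.54 ± 0.09 log2 units per doubling of hours (adjusted p = 0.011), but by 0.32 (0.388) without the butyrate 2 h array. On its dimmer probe set the butyrate slope was −0.51 (0.00189) and the slope difference −0.53 (0.0225), which did not pass on the brighter (−0.43, 0.124). Hnf4a, a nuclear receptor of enterocytes, rose with butyrate by 0.31 ± 0.07 (0.0322) and differed from aspirin by 0.67 ± 0.10 (0.0249). Its values reached at most 227 units, and its other probe sets stayed under the floor on every array (at most 38.6) and were not tested. The butyrate slope was 0.014 (0.907) with the higher floor and was lost without any 1 of the 5 butyrate arrays (0.0526 to 0.4), and the difference was lost in 5 of 10 such fits (up to 0.143), with the higher floor (0.10, 0.163) and with time as a factor (0.121). Cebpb, a C/EBP transcription factor, rose with aspirin by 0.57 ± 0.06 (0.0154) and its slope difference was −0.60 ± 0.09 (0.0234). The first lost its call without aspirin 24 h (0.0769), and the second in 6 of 10 fits that drop an array (up to 0.17), without the filter (0.0523) and with time as a factor (0.121). On the dimmer Cebpb probe set the aspirin slope also passed (0.91, limma, adjusted p = 0.0216), but the slope difference did not (−0.82, 0.0689).

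Vim was lower with butyrate than with aspirin by 0.53 ± 0.11 (adjusted p = 0.021, called in 2 of 10 fits that leave out an array). Against untreated cells it read −0.40 ± 0.18 (0.159). Fn1, fibronectin, fell with butyrate on X05834_at, the brightest of its 5 tested probe sets (−0.90 ± 0.23, 0.0263), and on U82612cds_at (−2.29, 0.042), while the other 3 did not pass (0.0729 to 0.329). On U82612cds_at the untreated arrays differed, with 1143 units at 2 h and 261 at 24 h. Its butyrate arrays ran from −30.9 to 196 units, partly under the floor, so the size of that change depends on the floor. The call on X05834_at was lost without untreated 2 or 24 h (0.102 and 0.139), without butyrate 12 or 16 h (0.0643 and 0.066), with time as a factor, the block by hour (0.0819), with the 2 groups alone (0.0724) and without the filter (0.0614). In the fibroblast and mesenchymal list 0 of 14 were higher and 1 was lower with butyrate (median −0.11), in that of blood and immune cells 0 of 9 were called (−0.11), in that of endothelium 0 of 5 (−0.17) and in that of hepatocytes 0 of 9 (−0.12). Between the drugs 1 of 14 genes of the fibroblast list was higher and 2 were lower with butyrate (median 0.10). The higher was S100a4 (0.35, 0.0206), but it read 0.041 (0.794) with median centring. The lower were Vim and Fn1 on X05834_at (−0.93, limma, adjusted p = 0.0244), the latter called in 2 of 10 fits that drop an array. Cd14 of the blood list was lower on its brighter probe set (−1.30, 0.0458), in 2 of 10 fits that drop an array. That probe set did not pass against untreated (−1.10, 0.078). The dimmer Cd14 probe set, which the list counts leave out, was lower against aspirin (−2.46, 0.0218) and against untreated (−2.09, 0.0177). Cyp2c11 of the hepatocyte list was lower (−0.65, 0.0406), but in 0 of 10 such fits, and by −0.089 (0.361) with the higher floor. Over the hours of butyrate Cnn1 of the fibroblast list rose from the floor (slope 0.75, 0.0123), with slopes of 0.41 to 1.10 by floor and a lost call without butyrate 24 h (0.0587). The slopes of Thy1 of that list (0.34, 0.0276) and Serpina1 of the hepatocyte list (1.08, 0.0366) also passed. For Cnn1 and this Thy1 probe set only the butyrate arrays from 12 h on were above the floor. Both therefore passed the filter only through the arrays that make the slope, and their calls are no separate support. Thy1 read 0.038 (0.361) with the higher floor and lost its call with either scaling, without the filter and without butyrate 16 or 24 h (up to 0.113). Serpina1 was called in 3 of 10 fits that drop an array (up to 0.171). The butyrate slope did not pass on the other probe sets of Serpina1 (0.0929 and 0.112) or Thy1 (slope 0.079, 0.574).

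The genes whose log2 values ran most like a keratin's over the 12 arrays are given as a description, without a test. For Krt18 they were Cavin3 (Pearson r = 0.957), Myl12a (0.954) and Cdipt (0.952). For Krt19 they were Rnase4 (0.951), Ube2b (0.932) and Pccb (0.931), and for Krt8 Dnm2 (0.898), Mgat1 (0.896) and Pmpca (0.89). The arrays share their scaling, and the 3 treatments give them a common pattern. Between the brightest probe sets of Krt18 and Krt19 r was −0.855, and between both Krt19 probe sets 0.842.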

How the data were processed

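Intensities of 12 arrays were read from the value table the authors deposited, with 1 column per array, 8799 probe sets and 59 controls. Its unit, intensity, was read from the deposited values (21.6 to 25.6% of them below 0, by array). The mean of the values between the 2nd and 98th percentile was 1000 on every array, so they were taken as already scaled. Software, background step and scaling: not given in the sources used here. Values under 91, the size of the 10th percentile, were raised to it before log2, and the 2622 probe sets dimmer on average than the 30th percentile (log2 6.54) were not tested. Symbols come from the array annotation.

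limma 3.58.1 (R 4.3.3; lmFit, eBayes with a variance trend) compared each treatment with untreated on 12 arrays (9 residual degrees of freedom), butyrate with aspirin on 10 treated arrays with time as a block (4), and slopes over log2 hours on the same arrays (6). The time block comes from the hours in the labels. Adjustment was by Benjamini and Hochberg at 0.05. Where arrays lie at the floor, a change or slope depends on it. The number of arrays limits the precision. Promoters are those of RefSeq (GRCr8), present for 9 of the 10 genes, searched with Python 3.11.15 and aligned with Biopython 1.88.

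The fits were tested on simulated data with known changes. All probe sets of the 10 genes were named. Other genes came from 6 lists of gut epithelium and 4 of other cell types: up to 3 called genes per list and comparison, and Epcam, Cdx1, Vim and Krt20 whatever their values (Cdh1, Vil1, Cdx2 and Krt7 had no probe set of their own), with the 3 genes most alike for each keratin. The members and lists were chosen with earlier results of these data known. Alternatives were 2 other floors, no filter, quantile normalization, median centring, no variance trend, leaving out each array, the 2 groups alone, time as a factor or not, and slopes over plain hours.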

Additional observations from a re-analysis of the deposited data

Results flagged for a closer look

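Between the drugs 7 probe sets differed (limma with time as a block, butyrate minus aspirin): Krt8 by 0.22, Krt18 by −0.36 and −0.58, Krt19 by 1.09 and 0.69, Tff3 by 1.06 and Ceacam4 by 2.46, with adjusted p from 0.00561 to 0.0408. The slopes of Ceacam4 over log2 hours differed by 1.23 (0.0108). Single arrays also stood apart within their group, by Dixon's ratio of the gap to the nearest array over the whole range, for which 0.71 is the 95% critical value with 5 arrays. For Krt18 on X81448cds_at this was the butyrate 2 h array (15180 units, ratio 0.749) and the aspirin 6 h array (21661 units, ratio 0.751). For Fabp2 it was the 2 h array of butyrate (110 units) and of aspirin (141 units), each with a ratio of 1 because the other 4 arrays lay at the floor. There were 20 such groups, of which chance marks about 5%. The arrays of a group stand for different hours.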

How the results depend on the processing

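The Krt18 fall with butyrate on X81448cds_at, the rise of Ceacam4 over the hours of butyrate and the Krt19 difference between the drugs on X81449cds_g_at stayed called in every alternative run; the other member calls were lost in at least 1. Values near the floor of 91 units are limited by background.

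With butyrate 716 probe sets were called against untreated, 355 without the filter, 306 with the 2 groups alone (2 of the 10 member probe sets, not 4) and 317 with time as a factor, the block by hour. With aspirin the 9 became 17 with the higher floor, 3 without the variance trend, and 0 with quantile normalization, median centring or time as a block (limma, 631, 602 and 614 at an unadjusted p under 0.05). Between the drugs 1540 became 779 without the filter, 1535 without the block, and the 7 members became 4 with the higher floor or quantile normalization and 1 without the filter. Butyrate slopes fell from 550 to 329 without the filter. Aspirin slopes went from 101 to 160 with the lower floor, 258 with median centring and 230 over plain hours. Slope differences went from 106 to 37 without the filter and 0 with time as a block (limma, 1025 unadjusted), which also ended the member call (0, not 1). The cause was not tested. Time as a block ended no other member call against untreated than that of Krt18 on rc_AI072634_at.

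Leaving out 1 array gave 310 to 1166 calls with butyrate (members 1 to 5), 1 to 306 with aspirin (0 to 0), 240 to 1645 between the drugs (1 to 6), 81 to 541 butyrate slopes (1 to 2), 7 to 231 aspirin slopes (0 to 1) and 3 to 119 slope differences (1 to 1).

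Directions turned only for uncalled values, except for Krt8 (−0.082) and Fabp5 (−0.0401) between the drugs with median centring. With that centring Krt20 read −0.14 with butyrate, Krt18 on rc_AI072634_at 0.0014 with aspirin, and slopes read −0.0093 for Krt8 with butyrate, and −0.061 for Krt8, −0.043 for Krt19 on X81449cds_g_at and −0.011 for Ceacam4 with aspirin. With quantile normalization Krt8 read 0.14 and Krt20 −0.044 with butyrate, the aspirin slope of Krt18 on rc_AI072634_at 0.005 and the slope difference of Krt8 −0.008. Leaving out 1 array spanned 0 with butyrate for Krt8 (−0.032 to 0.01), Fabp2 (−0.655 to 0.0545), Alpi (−0.45 to 0.098) and Krt20 (−0.14 to 0.23). With aspirin it did for Krt19 (−0.042 to 0.24, and −0.14 to 0.49), Fabp2 (−0.58 to 0.13), Epcam (−0.022 to 0.15) and Krt20 (−0.11 to 0.35). It did for the butyrate slopes of Krt18 on X81448cds_at (−0.15 to 0.029) and Tff3 (−0.51 to 0.041), and the aspirin slopes of Krt8 (−0.0097 to 0.032) and Krt19 (−0.15 to 0.29, and −0.048 to 0.23). It also did for the slope differences of Krt18 (−0.0854 to 0.062, and −0.11 to 0.094), Krt19 (−0.18 to 0.36, and −0.12 to 0.24), Fabp2 (−0.074 to 0.17) and Alpi (−0.0304 to 0.18).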
